A study of Mus musculus with 40 samples.

Results

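This report describes the response of *Ccnc* knockout (KO) mouse embryonic stem cells (mESCs) to 4 h of ATR inhibition, measured by RNA sequencing. The cells were 3 *Ccnc* KO clones, D1, G2 and H5, each a line expanded from a single cell after CRISPR-Cas9 editing, and each clone gave 1 culture with DMSO and 1 with 900 nM AZD6738, the ATR inhibitor (ATRi). These clones account for 12 of the 40 lane samples, or 6 of the 20 libraries. The comparison was ATRi against DMSO, paired by clone, over the 16776 genes with enough counts. The other libraries came from WT mESCs (2 replicates, each with DMSO and ATRi) and from 3 *Cdk8* KO clones treated in the same way. All cells were kept on gelatin in medium with serum and LIF, and RNA was selected for poly(A) tails and read from 1 end, with strand kept.

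*Ccnc* encodes cyclin C, the cyclin partner of CDK8 and of its paralogue CDK19 in the kinase module of Mediator, which modulates transcription by RNA polymerase II. ATR is the kinase that responds to exposed single-stranded DNA at replication forks, slows origin firing and delays entry into mitosis. mESCs cycle quickly, spend much of the cycle in S phase and rely strongly on ATR. The question was which genes respond to acute ATR inhibition in cells that lack cyclin C.

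The library totals of the *Ccnc* KO clones lay between 33540088 and 48651569 counts. *Ccnc* was at 4.24 to 7.41 CPM (counts scaled to a common library size) in the 6 KO libraries and at 38.8 to 45.4 CPM in the 4 WT libraries of the same multiplex, so the labels and the targeted gene match. The mESC markers summed to 4403 to 4808 CPM with DMSO and to 4536 to 4939 CPM with ATRi, and all 9 were present. Feeder fibroblast markers summed to 13.3 to 18.7 CPM with DMSO and to 13.8 to 16.1 CPM with ATRi, with *Lum* at 0 in all 6 libraries. The library of clone D1 with DMSO stood apart: mitochondrial genes took 2.16% of its counts, against 1.19% to 1.46% in the other 5, and its 10 most abundant genes took 4.44%, against 3.82% to 3.97%. WT replicate 2 with ATRi also stood apart (3.22%). The authors left that sample out after a principal component analysis, so the WT values given here are those of replicate 1.

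With ATRi, 62 genes were raised and 47 were lowered in the *Ccnc* KO clones at a Benjamini-Hochberg adjusted p under 0.05 in edgeR's quasi-likelihood test with the clone as a block. These were 0.65% of the genes tested, 0.37% raised and 0.28% lowered, while 15.4% had an unadjusted p under 0.05. The lowered genes were led by *Chac1*, *Adm2*, *Nupr1*, *Trib3*, *Stc2*, *Slc1a4* and *Slc6a9*, all but *Adm2* being members of lists of ATF4-regulated stress and amino acid genes. The raised genes were led by histone genes, among them *Hist1h1c*, *Hist3h2a* and *Hist1h2bc*. Most changes were small: the median size on the log2 scale was 0.56 for the raised and 0.64 for the lowered genes, and 9 genes in each direction changed by more than 2-fold. The median log2 fold change over all genes tested was -0.01.

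Each of the 109 called genes moved the same way in all 3 clones, against 17.9% of the genes tested that were higher and 19.8% that were lower in all 3. The 3 ATRi libraries lay above all 3 DMSO libraries for 56 of the 62 raised genes (8.9% of the genes tested), and below them for 44 of the 47 lowered genes (9.9%). The genes were called from these same libraries by a test that favours agreement between clones, so these counts give no separate support. The number of calls depended on the clones fitted: 466 genes were called without D1, 228 without G2 and 328 without H5. When the pairing by clone was ignored, 15 were called. Of the 109 genes, 109 were called again without D1, 92 without H5 and 69 without G2.

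**Figure D1:**
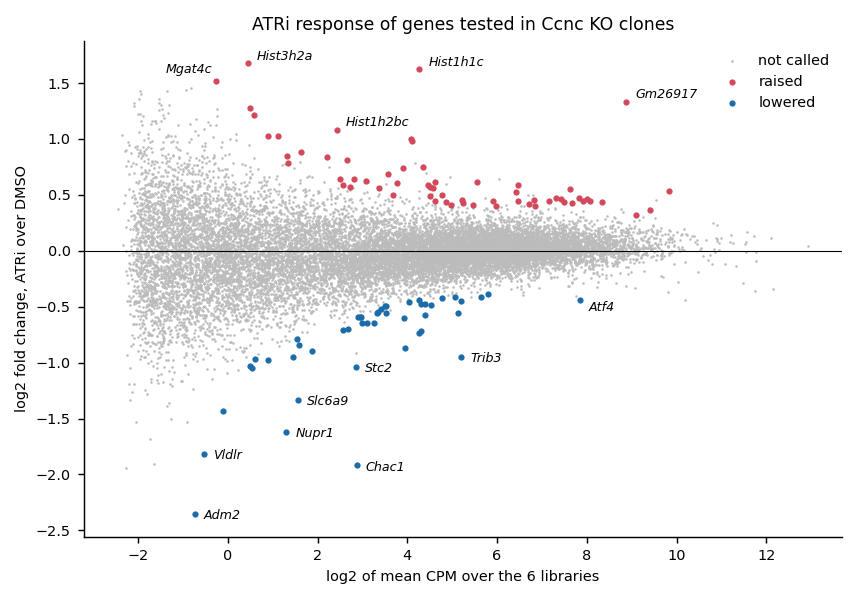
Each point is 1 of the 16776 genes tested in the *Ccnc* KO clones, with the log2 of its mean CPM over the 6 libraries on the x axis and the log2 fold change of ATRi over DMSO on the y axis. The 62 raised genes (red) and 47 lowered genes (blue) stand away from a cloud whose median is -0.01.

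The DNA next to the start of 3 of the lowered genes is printed first, because it carries the letters of the C/EBP-ATF response element (CARE) that ATF4 is known to bind. The windows reached from 250 bases before to 50 bases after the RefSeq start on GRCm38.p6. The search used TGANGCAA on both strands, and capitals mark each match. The *Chac1* stretch is chr2:119350992-119351082 on the plus strand, with matches at 250 to 243 and 193 to 186 bases upstream of the start. The *Nupr1* stretch is chr7:126625562-126625591 on the minus strand, with a match at 110 to 103 bases upstream, inside an exon that GENCODE M21 annotates for a longer *Nupr1* transcript. The *Herpud1* stretch is chr8:94386273-94386350 on the plus strand, with matches at 130 to 123 and 112 to 105 bases upstream.
Chac1: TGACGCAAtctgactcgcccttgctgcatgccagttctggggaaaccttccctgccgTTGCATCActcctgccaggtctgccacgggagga
Nupr1: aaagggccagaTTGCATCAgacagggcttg
Herpud1: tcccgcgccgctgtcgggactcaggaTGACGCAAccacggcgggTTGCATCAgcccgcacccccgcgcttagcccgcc

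Of the genes tested, 10989 matched a RefSeq promoter window, including 39 of the 47 lowered and 35 of the 62 raised genes. No raised gene of the replication-dependent histone list had a window, so the shares of raised genes leave these out. The CARE letters were found in 380 windows of all genes (3.46%), in 6 of the 39 lowered genes (15.4%) and in 2 of the 35 raised genes (5.71%). The 6 lowered genes were *Chac1*, *Slc1a4*, *Nupr1*, *Herpud1*, *Vldlr* and *B3gnt5*, and the 2 raised genes were *Mdn1* and *Ubr4*, named here because they held the letters. The CCAAT box, searched as CCAAT on both strands, was in 42.9% of all windows, 59% of the lowered and 37.1% of the raised. The CHR element of mitotic genes, searched as TTTGAA, was in 14% of all windows, 10.3% of the lowered and 11.4% of the raised. No window of a called gene held the heat shock element GAANNTTCNNGAA, which was in 0.546% of all windows. These matches are descriptions of letters, and binding was not measured.

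ATF4 is the transcription factor whose protein is made when the integrated stress response limits translation, and its targets include stress regulators, amino acid transporters and enzymes of amino acid synthesis. In the list of ATF4-CHOP stress regulators, 6 of the 17 genes tested were lowered by ATRi and none was raised. The lowered share was 35.3%, against 0.28% of all genes. The median log2 fold change over the 17 was -0.15, and 13 of them were negative. The list medians in the single clones were -0.21 in D1, -0.30 in G2 and -0.23 in H5, and the median of the fit was -0.23 without D1 and -0.22 without H5. The 6 lowered genes ran from a regulator, *Atf4* itself, to secreted and metabolic products such as *Stc2* and *Chac1*.

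*Chac1*, which encodes a cyclotransferase that breaks down glutathione and lies on chromosome 2 at 119351229 to 119354381, was at 14.1, 10.4 and 10.1 CPM in D1, G2 and H5 with DMSO and at 4.08, 2.32 and 2.87 CPM with ATRi. Every ATRi library was below every DMSO library. The log2 fold change was -1.92 (SE 0.13) with an adjusted p of 1.87e-06 in edgeR's quasi-likelihood test. *Chac1* had the smallest p of the lowered genes.

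*Trib3*, a pseudokinase induced by ATF4 and CHOP (chromosome 2 at 152337422 to 152344032), was at 50.2, 47.6 and 46.7 CPM with DMSO and at 29.8, 22.9 and 22.8 CPM with ATRi. The groups did not overlap, and D1 stayed highest with ATRi. The log2 fold change was -0.95 (SE 0.09, adjusted p = 0.000136 in edgeR's quasi-likelihood test).

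*Nupr1*, a small stress-induced nuclear protein, was at 4.76, 3.49 and 3.00 CPM with DMSO and at 1.19, 1.38 and 1.03 CPM with ATRi, without overlap (log2 fold change -1.62, SE 0.19, edgeR adjusted p = 0.000704). *Stc2*, which encodes the secreted glycoprotein stanniocalcin 2, was at 11.8, 9.23 and 8.35 CPM and then at 5.63, 4.47 and 4.18 CPM (log2 fold change -1.04, SE 0.12, edgeR adjusted p = 0.00069). For *Stc2* too the highest ATRi library lay below the lowest DMSO library. *Vldlr*, the receptor of very low density lipoprotein, was at 1.5, 0.735 and 1.05 CPM and then at 0.311, 0.281 and 0.305 CPM. It fell by 1.82 on the log2 scale (SE 0.31, edgeR adjusted p = 0.0157), on counts of 11 to 13 in the ATRi libraries.

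*Atf4* was at 317, 253 and 224 CPM with DMSO and at 225, 175 and 182 CPM with ATRi. Each clone was lower with ATRi, but the groups overlapped, since D1 with ATRi was at the level of H5 with DMSO. The log2 fold change was -0.44 (SE 0.07, edgeR adjusted p = 0.0143). Members of the list that did not pass the test, chosen here after their values were seen, included *Gdf15*, a stress-induced cytokine (-0.77, edgeR adjusted p = 0.0577), and *Ddit3*, which encodes CHOP (-0.45, edgeR adjusted p = 0.153).

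Amino acid transporters included 2 lowered genes among 9 tested (22.2%, against 0.28% of all genes, list median -0.13). *Slc1a4*, an exchanger of neutral amino acids, was at 22.5, 18.7 and 18.9 CPM with DMSO and at 11.8, 10.4 and 10.6 CPM with ATRi (log2 fold change -0.87, SE 0.10, edgeR adjusted p = 0.00069). *Slc6a9*, a glycine transporter, was at 4.88, 3.62 and 4.21 CPM and then at 1.92, 1.48 and 1.64 CPM (log2 fold change -1.33, SE 0.16, edgeR adjusted p = 0.000932). Neither gene's groups overlapped, and the ATRi values of the 3 clones were close together.

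The 13 enzymes of amino acid and one-carbon metabolism had a median of -0.08, and 12 had a negative value. Among them, 1 was lowered (7.69%, against 0.28% of all genes). It was *Gpt2*, the mitochondrial alanine aminotransferase, at 46.3, 37.6 and 40.4 CPM with DMSO and 29.7, 26.9 and 27.7 CPM with ATRi (log2 fold change -0.56, SE 0.08, edgeR adjusted p = 0.00665). The mitochondrial folate enzyme *Mthfd2* had -0.33 (edgeR adjusted p = 0.0526) and *Pck2*, the mitochondrial phosphoenolpyruvate carboxykinase, had -0.42 (edgeR adjusted p = 0.057). *Asns*, asparagine synthetase and a classical ATF4 target, had -0.07 (edgeR adjusted p = 0.689). None of the 20 cytosolic aminoacyl-tRNA synthetases passed the test in edgeR, and 0 of the 20 had an unadjusted p under 0.05, with 0 called by DESeq2 and by voom as well (median -0.04).

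The list median of the endoplasmic reticulum chaperones and unfolded protein response genes was 0.02. Of the 27 tested, 1 was lowered (3.7%, against 0.28% of all genes). This was *Herpud1*, a membrane protein of endoplasmic reticulum-associated degradation whose promoter stretch is printed above, at 26.8, 23.1 and 22.6 CPM with DMSO and 14.6, 13.7 and 15.0 CPM with ATRi. The ATRi values lay below the DMSO values in every pairing (log2 fold change -0.74, SE 0.10, edgeR adjusted p = 0.00234). Glycolysis and hypoxia genes had 2 lowered members of 23 (8.7%, against 0.28% of all genes), with a list median of -0.02. *Vegfa*, the vascular growth factor, was at 27.8, 27.4 and 20.4 CPM and then at 19.6, 18.6 and 12.9 CPM (-0.58, SE 0.09, edgeR adjusted p = 0.0103). *Bnip3*, a mitophagy receptor, was at 21.2, 17.2 and 16.9 CPM and then at 12.9, 10.9 and 12.5 CPM (-0.60, SE 0.10, edgeR adjusted p = 0.0143). Neither gene's groups overlapped.

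The 9 lowered genes of the ATF4, transporter and enzyme lists had medians of -1.06 in D1, -1.05 in G2 and -1.03 in H5, while single members differed more between clones, as *Vldlr* did with -2.10, -1.25 and -1.63. The other 38 lowered genes had medians of -0.64, -0.59 and -0.59. The gene with the largest fall among all called genes was *Adm2*, which encodes the peptide hormone intermedin, at 1.26, 0.926 and 0.827 CPM with DMSO and 0.255, 0.164 and 0.164 CPM with ATRi (log2 fold change -2.35, SE 0.33, edgeR adjusted p = 0.00422). It rested on 7 to 9 counts per ATRi library, the fewest of any called gene.

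The remaining lowered genes with large changes belonged to none of the lists. *Oprl1*, the nociceptin receptor, fell by 1.44 on the log2 scale, from 1.02, 1.55 and 1.51 CPM to 0.453, 0.375 and 0.681 CPM. *Bcas1*, a gene expressed in myelinating cells, had a log2 fold change of -1.05, and *Rnf207*, a RING finger protein gene, of -1.03. The kinase *Pak6* had -0.98, the interleukin 23 subunit *Il23a* -0.97, the tyrosine phosphatase *Ptpre* -0.95 and *Prr36* -0.90. In all 7 the ATRi libraries lay below the DMSO libraries, with edgeR adjusted p-values from 0.014 to 0.0485. The calls of *Oprl1*, *Bcas1* and *Rnf207* were lost without G2 and that of *Pak6* without H5.

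Of the gene lists, the histone lists held the most raised genes. Replication-dependent histone mRNAs end in a stem-loop in place of a poly(A) tail, so a poly(A) library holds a small portion of them, and 34 of the 67 listed genes had enough counts to be tested. Of these 34, 5 were raised (14.7%, against 0.37% of all genes) and none was lowered, the median was 0.43, and 28 were positive. The medians of single clones were 0.64 in D1, 0.29 in G2 and 0.62 in H5. Copies within the clusters have near-identical coding sequences, so which reads were counted for each copy is uncertain. When genes were required to have a mean of at least 100 counts, the median of the remaining list was 0.83.

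*Hist1h1c*, the linker histone H1.2 gene (chromosome 13 at 23738808 to 23740367), was at 7.39, 10.5 and 10.6 CPM with DMSO and at 27.7, 29.4 and 30.0 CPM with ATRi. All ATRi libraries lay far above all DMSO libraries. The log2 fold change was 1.62 (SE 0.11, edgeR adjusted p = 1.87e-06), a 3.08-fold rise and the smallest p of the raised genes.

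*Hist1h2bc*, an H2B gene, was at 2.96, 3.57 and 3.83 CPM with DMSO and at 6.76, 7.12 and 8.03 CPM with ATRi (log2 fold change 1.08, SE 0.13, edgeR adjusted p = 0.000932). *Hist3h2a*, an H2A gene, was at 0.688, 0.653 and 0.605 CPM and then at 2.04, 2.11 and 2.07 CPM (1.68, SE 0.22, edgeR adjusted p = 0.00234). Both groups were tight and did not overlap. However, *Hist3h2a* shares exons with *Trim17* on the same strand, so how reads in those exons were counted is uncertain. *Hist3h2ba*, an H2B gene, was at 1.14, 1.20 and 1.96 CPM and then at 3.00, 2.67 and 3.05 CPM (1.03, edgeR adjusted p = 0.0285). *Hist1h4i*, an H4 gene, was at 2.24, 3.98 and 3.75 CPM and then at 5.80, 5.39 and 6.44 CPM (0.83, edgeR adjusted p = 0.0351).

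Histone genes with ordinary poly(A) tails, which are expressed outside S phase as well, had a list median of 0.12. Of the 9 tested, 2 were raised (22.2%, against 0.37% of all genes). *H1f0*, the linker histone H1.0 gene linked to slow cycling and differentiation, was at 36.9, 40.1 and 33.5 CPM with DMSO and at 60.1, 52.9 and 56.3 CPM with ATRi (log2 fold change 0.62, SE 0.09, edgeR adjusted p = 0.00479). *H1fx*, another linker histone gene, was at 80.9, 92.7 and 97.1 CPM and then at 126, 122 and 114 CPM (0.42, SE 0.08, edgeR adjusted p = 0.0372). Neither gene's groups overlapped, and *H1fx* shares exons with *Gm47286* on its strand. Of the 7 raised histone genes, 3 encoded linker histones, namely *Hist1h1c*, *H1f0* and *H1fx*.

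**Figure D2:**
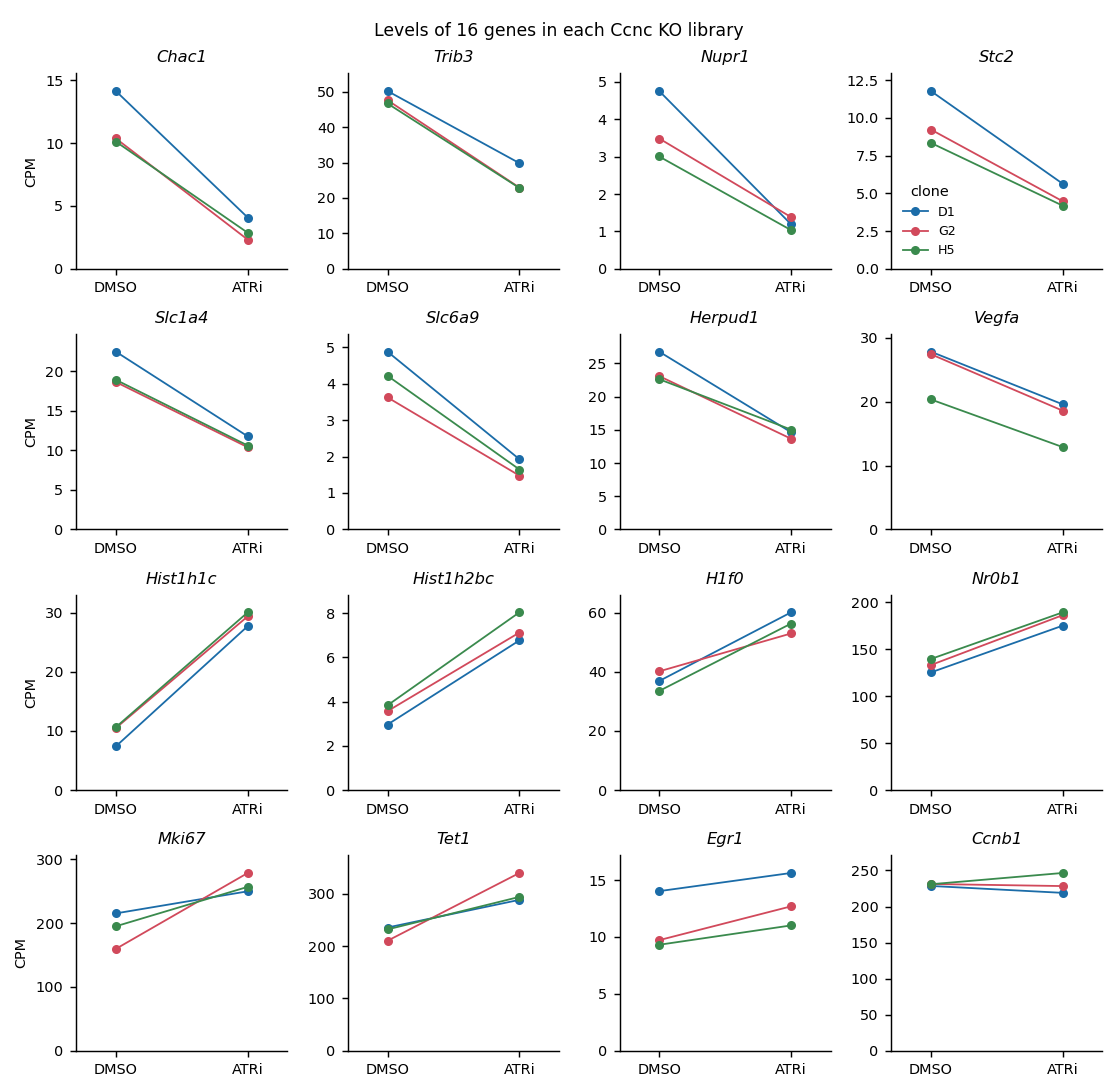
CPM of 16 genes in each *Ccnc* KO library, with lines joining DMSO to ATRi within a clone and each y axis starting at 0. *Chac1*, *Trib3*, *Nupr1*, *Stc2*, *Slc1a4*, *Slc6a9*, *Herpud1* and *Vegfa* fall in all 3 clones, *Hist1h1c*, *Hist1h2bc*, *H1f0*, *Nr0b1*, *Mki67* and *Tet1* rise in all 3, and the DMSO and ATRi values of *Egr1* and *Ccnb1* overlap.

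The lists of the cell cycle and the DNA damage response hold genes close to the known work of ATR. Of 66 G2/M and mitosis genes, 2 were raised and none was lowered, with a list median of 0.05 (0.11 without D1) and 50 positive values. The raised share was 3.03%, against 0.37% of all genes, and DESeq2 called 4 of the 66. In 22 of them (33.3%, against 8.9% of all genes) the ATRi libraries lay above all DMSO libraries, and 17 (25.8%, against 15.4%) had an unadjusted p under 0.05. *Mki67*, which encodes the proliferation antigen Ki-67, was at 215, 160 and 195 CPM with DMSO and at 250, 279 and 257 CPM with ATRi (log2 fold change 0.47, SE 0.09, edgeR adjusted p = 0.0372). *Aspm*, a spindle pole protein gene, was at 91.1, 87.5 and 109 CPM and then at 120, 139 and 135 CPM (0.46, SE 0.08, edgeR adjusted p = 0.0223). Both genes were higher in every ATRi library than in every DMSO library, and both lost the call when G2 was left out. *Ccnb1*, the mitotic cyclin B1 gene, was at 229, 231 and 231 CPM and then at 219, 228 and 247 CPM, and *Cdc25a*, a phosphatase that activates cyclin-dependent kinases, at 180, 199 and 191 CPM and then at 181, 179 and 174 CPM. Neither *Ccnb1* (edgeR adjusted p = 0.984) nor *Cdc25a* (-0.09, edgeR adjusted p = 0.586) passed the test.

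None of the 49 G1/S and E2F target genes was called by edgeR, DESeq2 or voom, and the list median was 0.02. Of the 49, 5 had an unadjusted p under 0.05 (10.2%, against 15.4% of all genes). Their smallest p-values belonged to *Ccnd2*, cyclin D2 (-0.36), and *Uhrf1*, a reader of hemimethylated DNA (0.27). Likewise, none of the 32 genes of ATR-CHK1 signalling and fork protection was called by edgeR, and DESeq2 called 1. Their list median was 0.02, and 3 (9.38%) had an unadjusted p under 0.05. *Atm*, the kinase parallel to ATR, was at 46.7, 44.5 and 48.9 CPM with DMSO and at 54.9, 67.0 and 61.2 CPM with ATRi, with a log2 fold change of 0.38 and an edgeR adjusted p of 0.0594. Its ATRi values all lay above its DMSO values. *Mus81*, a structure-specific endonuclease, had 0.26.

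Of 31 p53 targets, 1 was raised, *Eda2r*, a receptor of the tumour necrosis factor family, at 30.2, 28.7 and 36.0 CPM and then at 41.3, 43.0 and 45.2 CPM (0.45, SE 0.09, edgeR adjusted p = 0.0286). The raised share of the p53 targets was 3.23%, against 0.37% of all genes, and DESeq2 called 2 of the 31. An unadjusted p under 0.05 was found for 9 of them (29%, against 15.4% of all genes). The log2 fold changes ran from -0.77 to 0.45, with 19 positive and 12 negative. The *Eda2r* groups did not overlap, its call was lost without G2, and the list median of the p53 targets was 0.03.

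In each of the pluripotency lists 1 gene passed the test. Of 19 naive pluripotency genes, *Nr0b1*, the nuclear receptor DAX1, was the 1 raised member, at 125, 133 and 140 CPM with DMSO and at 175, 186 and 189 CPM with ATRi (log2 fold change 0.47, SE 0.07, edgeR adjusted p = 0.00665). Of 13 core and formative genes, *Tet1*, which oxidises 5-methylcytosine, was the 1 raised member, at 235, 210.1 and 232 CPM and then at 288, 340 and 294 CPM (0.44, SE 0.08, edgeR adjusted p = 0.0285). The ATRi libraries of both genes lay above the DMSO libraries, and *Tet1* lost the call without G2. The list medians were 0.08 and 0.10, and the raised shares were 5.26% and 7.69%, against 0.37% of all genes. An unadjusted p under 0.05 was found for 8 of the 19 naive genes (42.1%, against 15.4% of all genes) and 3 of the 13 core and formative genes (23.1%). Among markers of other lineages, *Sox3*, a neural progenitor factor, was raised (7.54, 9.20 and 8.21 CPM to 12.2, 11.8 and 12.7 CPM, log2 fold change 0.56, edgeR adjusted p = 0.0372, call lost without H5). The summed neuroectoderm markers spanned 197.3 to 220.8 CPM with DMSO and 203.9 to 211.3 CPM with ATRi, with *Tubb3* (61.0 to 92.0 CPM) and *Ntn1* (48.1 to 62.7 CPM) weighing most. Over the 13 neuroectoderm markers tested the median log2 fold change was 0.16, with 9 positive and 4 negative. In 3 of them (23.1%, against 8.9% of all genes) the ATRi libraries lay above all DMSO libraries.

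Of the 27 gene lists, 13 held a called gene and 14 held none. Those with none included the kinase module itself, where 1 of 7 genes had an unadjusted p under 0.05 (14.3%, against 15.4% of all genes). *Ccnc* (-0.21, edgeR adjusted p = 0.477), *Cdk8* (-0.03), *Cdk19* (0.09), *Med12* (0.08), *Med12l* (-0.08), *Med13* (0.18) and *Med13l* (0.17) did not pass the test, and DESeq2 called 0. *Egr1*, an immediate early transcription factor, was at 14, 9.72 and 9.31 CPM with DMSO and at 15.6, 12.7 and 11 CPM with ATRi (0.26, edgeR adjusted p = 0.254). Its groups overlapped, though each clone was higher with ATRi. In the same list, *Junb* had 0.36 and *Ier5* 0.55.

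No member was called in edgeR, at the same threshold, in sterol synthesis (26 genes tested, 2 with an unadjusted p under 0.05), the heat shock response (22 and 5), NRF2 targets (8 and 1), immediate early genes (23 and 9), FGF-ERK feedback (10 and 3), Wnt targets (11 and 3), the interferon response (17 and 4), SR proteins and CLK kinases (16 and 2) or ribosome biogenesis (20 and 3). An unadjusted p under 0.05 was found for 15.4% of all genes. In these lists the share was 39.1% for immediate early genes, 30% for FGF-ERK, 27.3% for Wnt, 23.5% for interferon and 22.7% for heat shock. It was 15% for ribosome biogenesis, 12.5% for NRF2 and for SR proteins and CLK kinases, and 7.69% for sterol synthesis. DESeq2 called 1 gene each in the heat shock, NRF2, immediate early and FGF-ERK lists, and voom called none. Members with the smallest p in edgeR included the co-chaperone gene *Bag3* (-0.34), the inducible chaperone gene *Hspa1a* (0.61), the haem oxygenase gene *Hmox1* (-0.29), the ERK phosphatase gene *Dusp6* (0.29), the ERK inhibitor gene *Spry2* (0.23), the Wnt effectors *Lef1* (-0.54) and *Cdx1* (0.53), *B2m* of the class I antigen complex (-0.58) and *Stat2* (-0.27). The smallest edgeR adjusted p among these was 0.0629, for *Bag3* and for *B2m*. In the list of 8 nuclear long noncoding RNAs, *Mirg*, a host transcript of microRNAs, was lowered from 49.6, 41.4 and 36.7 CPM to 29.8, 31.3 and 31.3 CPM (-0.45, edgeR adjusted p = 0.0499). The lowered share of that list was 12.5%, against 0.28% of all genes.

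The mitochondrially encoded genes had a list median of -0.35 over 12 genes, none called by edgeR. An unadjusted p under 0.05 was found for 9 of the 12 (75%, against 15.4% of all genes). DESeq2 called 1 and voom 0. The clone medians were -0.86 in D1, -0.16 in G2 and 0.02 in H5, and the list median without D1 was -0.09. *mt-Nd2*, a subunit of respiratory complex I, was at 1966, 1171 and 991 CPM with DMSO and at 939, 978 and 983 CPM with ATRi. The D1 library with DMSO, the one with 2.16% of its counts on mitochondrial genes, was thus the high value. *mt-Nd6*, another complex I subunit, went the other way, from 10.2, 10.7 and 6.67 CPM to 15.9, 11.8 and 13.4 CPM without overlap (0.59, edgeR adjusted p = 0.0629). In the *Cdk8* KO clones the list median was 0.23.

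**Figure D3:**
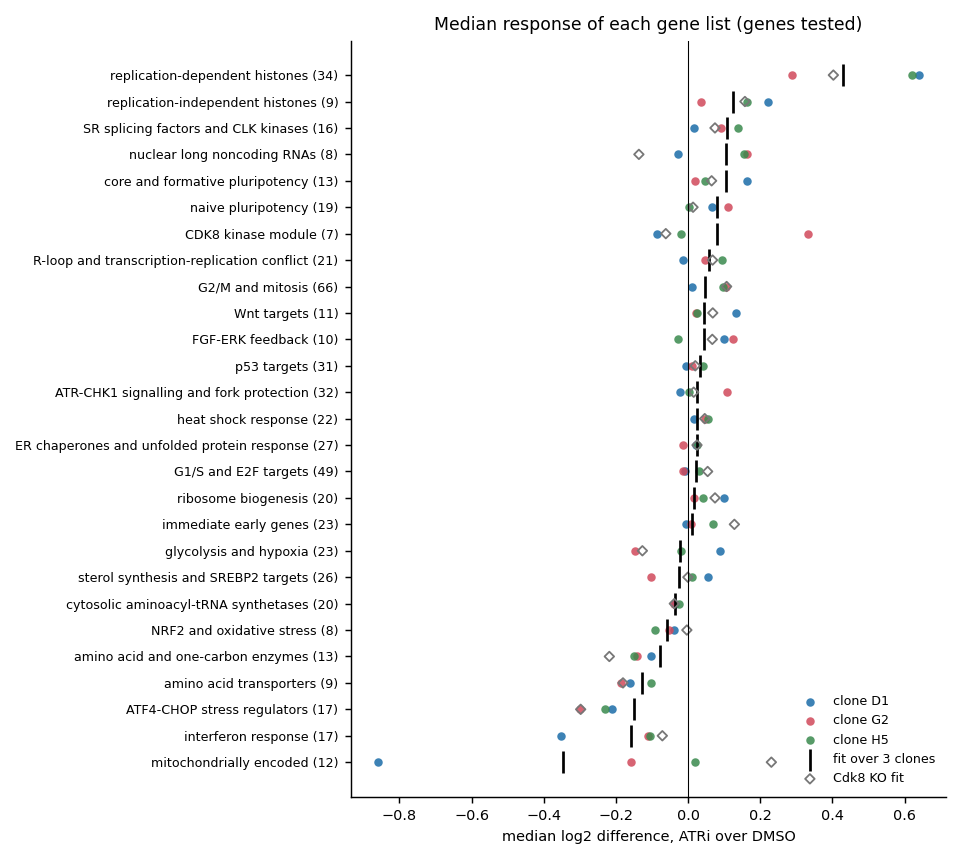
Median log2 difference of ATRi over DMSO in each of the gene lists, with the number of genes tested in brackets, for each *Ccnc* KO clone (coloured points), the fit over 3 clones (black bars) and the *Cdk8* KO fit (open diamonds). The replication-dependent histones lie highest at 0.43, the ATF4-CHOP regulators at -0.15 with all 3 clones below 0, and the mitochondrially encoded genes are spread from -0.86 to 0.02 over the clones.

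Raised genes with large changes outside the lists included genes of low level. *Mgat4c*, a glycosyltransferase gene, had a log2 fold change of 1.52 (call lost without G2), *BC051019* of 1.28 and *Rassf4*, a Ras-association domain gene, of 1.22. *Rassf4* was at 0.748, 0.762 and 1.21 CPM with DMSO and at 1.78, 2.13 and 2.40 CPM with ATRi, without overlap. The lincRNA *Gm26917* (chromosome 17 at 39843013 to 39846341) was at 223, 322 and 246 CPM and then at 887, 604 and 531 CPM (1.33, SE 0.14, edgeR adjusted p = 0.000512). It resembles ribosomal RNA in sequence, so its counts are uncertain.

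Of the 62 raised genes, 47 were protein coding, 9 were pseudogenes and 6 had other biotypes. Of the 47 lowered genes, 45 were protein coding, 1 was a pseudogene and 1 had another biotype. Pseudogenes made up 13.9% of the genes tested. *Gm9625* was at 53.3, 75.9 and 83.1 CPM with DMSO and at 87.6, 111 and 117 CPM with ATRi (0.58, SE 0.08, edgeR adjusted p = 0.00235), and *Gm12338* at 6.31, 15.5 and 13.1 CPM and then at 19.0, 22.3 and 25.7 CPM (1.00, edgeR adjusted p = 0.00617). The lowest DMSO value of both was in D1. Reads of processed pseudogenes can come from their parent genes, so these values are uncertain.

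Long genes were frequent among the raised genes. Of the 47 raised protein-coding genes, 24 lay in the top bin of exon length (7559 bases and more) when the protein-coding genes were split into 5 equal bins, and this bin held 7 of the lowered genes. The median exon length was 7826 bases for the raised, 4120 for the lowered and 4396 for all protein-coding genes tested. Length moved with the response of 1 clone: over the 5 bins of exon length, the median log2 difference in G2 went from -0.10 in the shortest to 0.08 in the longest, against 0.00 to -0.04 in D1 and 0.02 to -0.02 in H5. Of the 24 long raised genes, 9 were called without G2, whereas all 7 raised histone genes and all 9 lowered genes of the ATF4, transporter and enzyme lists were. Each clone gave 1 library per treatment, so a trend of a clone cannot be told apart from one of its libraries. The part of length in these calls was not tested.

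GC content moved with the response in the clones in opposite directions. From the bin of protein-coding genes with the lowest GC content to the bin with the highest, the median log2 difference went from -0.14 to 0.11 in D1, from 0.03 to -0.07 in G2 and from 0.04 to -0.08 in H5. In the fit over the 3 clones the medians of the 5 bins all lay between -0.02 and -0.01. After the trend of each library with length and GC content was removed, an alternative chosen after seeing the data, 399 genes were called (230 raised and 169 lowered). That fit kept 108 of the 109 calls, among them all 24 long raised genes, and it was no test of the part of length.

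**Figure D4:**
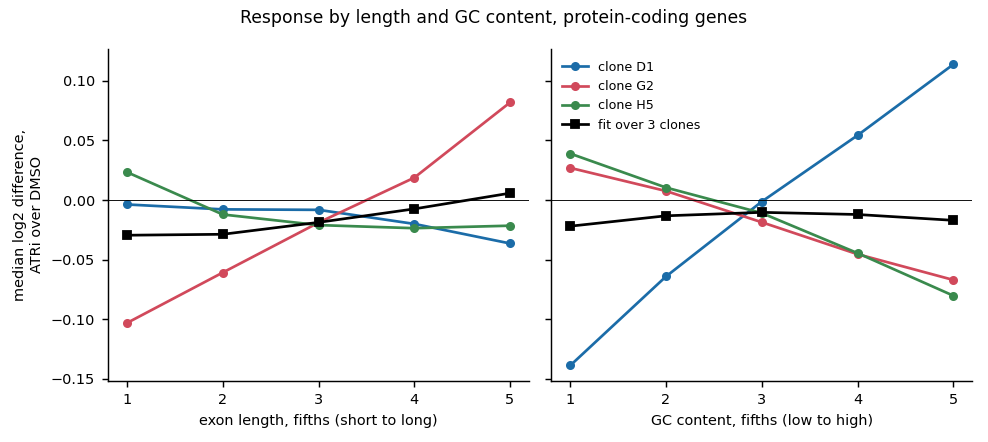
Median log2 difference of ATRi over DMSO for protein-coding genes in 5 equal bins of exon length (left) and of GC content (right), from lowest to highest, for each *Ccnc* KO clone and for the fit over 3 clones. Clone G2 rises with length from -0.10 to 0.08, and D1 rises with GC content from -0.14 to 0.11 while G2 and H5 fall.

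The size of the change differed between the library pairs of the clones. Each clone gave 1 library per treatment, so a trait of a clone cannot be told apart from variation of single libraries. The median log2 difference of the raised genes was 0.58 in D1, 0.66 in G2 and 0.43 in H5, and that of the lowered genes was -0.71, -0.65 and -0.60. H5 had the smallest change of the 3 clones in 52 of the 109 genes and the largest in 19. Across all genes tested, which are not independent replicates, the log2 differences of 2 clones correlated weakly, with Pearson's r of 0.22 for D1 and G2, 0.23 for D1 and H5 and 0.18 for G2 and H5.

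The *Cdk8* KO clones were used to ask whether the genes called in *Ccnc* KO clones move in cells that lack the kinase partner of cyclin C. These libraries were separate cultures sequenced in another multiplex, and they share no library with the *Ccnc* KO comparison. In the *Cdk8* KO clones B9, H4 and C8, 1193 genes were called (6.95%), 489 raised (2.85%) and 704 lowered (4.1%). That number varied widely: it was 763 without B9, 283 without H4 and 2110 without C8, and 0 when the pairing by clone was ignored.

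The genes lowered in *Ccnc* KO clones were mostly lowered in *Cdk8* KO clones too. Of the 47, 46 had the same direction there (97.9%, against 51.8% of all genes) and 42 were called the same way (89.4%, against 4.1% of all genes). Of the 62 raised genes, 55 had the same direction (88.7%, against 48.2% of all genes) and 31 were called the same way (50%, against 2.85%), while *Gm13315* was called the opposite way. In reverse, 6.35% of the genes raised in *Cdk8* KO clones were called the same way in *Ccnc* KO clones, against 0.37% of all genes. For the genes lowered in *Cdk8* KO clones it was 6%, against 0.28%.

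In the *Cdk8* KO clones, the log2 fold change was -1.84 for *Chac1*, -1.0 for *Trib3*, -1.35 for *Nupr1*, -1.63 for *Slc6a9*, 1.70 for *Hist1h1c* and 1.55 for *Hist1h2bc*. These were close to the *Ccnc* KO values for *Chac1* (-1.92), *Trib3* (-0.95) and *Hist1h1c* (1.62). The 9 lowered genes of the ATF4, transporter and enzyme lists were all called in the *Cdk8* KO clones, with a median of -1.01 against -1.04. Of the 7 raised histone genes, 6 were called there, the exception being *Hist3h2ba* (0.37, edgeR adjusted p = 0.139).

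The raised pseudogenes differed from this. Of the 9, none was called as raised in the *Cdk8* KO clones, their values there ran from -0.30 to 0.45 with a median of 0.03, and 5 had the same direction. *Gm9625* was at -0.03 and *Gm12338* at 0.10. The long raised genes had a median of 0.19 in the *Cdk8* KO clones against 0.46 in the *Ccnc* KO clones, and 10 of the 24 were called. The pseudogenes and the long genes were chosen by their *Ccnc* KO values, which can enlarge those values beside the *Cdk8* KO ones. One of these long genes, *Kmt2d*, which encodes a histone H3 lysine methyltransferase, was at 53.5, 45.5 and 53.2 CPM and then at 70.8, 72.4 and 63.7 CPM in the *Ccnc* KO clones (0.44, edgeR adjusted p = 0.0365, call lost without G2), and had -0.10 in the *Cdk8* KO clones.

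The test of the difference between the *Ccnc* KO and *Cdk8* KO responses called 0 of 17630 genes in edgeR's quasi-likelihood test, with 1146 at an unadjusted p under 0.05 (6.5%). DESeq2 called 2 genes, both pseudogenes, *Gm13315* (difference 1.12 on the log2 scale, adjusted p = 0.0216) and *Gm9625* (0.61, adjusted p = 0.0304). In edgeR the smallest p-values belonged to *Gm13315* (1.09), *Gm8343* (-1.07), *Ccdc173* (-1.11), the metallothionein gene *Mt2* (-0.54) and *Kmt2d* (0.53), each with an adjusted p of 0.599. Leaving out H5 gave 34 calls. Each clone's DMSO and ATRi libraries lay in 1 multiplex, so a shift shared by both cancels, and the WT libraries, which were sequenced in both multiplexes, did not enter this test.

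In WT replicate 1, which is a single pair of libraries and so a value without replicate error, 46 of the 47 lowered genes (97.9%, against 51.9% of all genes) and 54 of the 62 raised genes (87.1%, against 48%) had the same direction as in the *Ccnc* KO clones. The log2 difference was -2.28 for *Chac1*, -1.08 for *Trib3*, -1.44 for *Nupr1*, 1.01 for *Hist1h1c* and 1.19 for *Hist1h2bc*. The lowered genes had a median of -0.54 in WT and -0.64 in *Ccnc* KO, and the raised genes 0.27 and 0.56. Both groups were chosen by their *Ccnc* KO values, which can enlarge those values beside the WT ones. Of the raised pseudogenes, 2 of 9 had the same direction in WT.

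The test of the difference between the *Ccnc* KO response and that of WT replicate 1 called 0 of 18457 genes in edgeR's quasi-likelihood test, with 406 at an unadjusted p under 0.05 (2.2%). DESeq2 also called 0, with 68 at an unadjusted p under 0.05. Without one clone the edgeR test called 29 genes (without D1), 35 (without G2) or 34 (without H5). The smallest p-values belonged to the pseudogenes *Gm9403* (3.05), *Gm7252* (2.52) and *Gm5385* (-2.57), to *mt-Rnr2*, a mitochondrial ribosomal RNA (-0.82), and to *Rftn2*, a lipid raft protein gene (1.86). These are differences between responses, and in all of them the WT pair moved more than the *Ccnc* KO clones. The *Ccnc* KO value and the WT difference were 0.07 and -2.81 for *Gm9403*, 0.23 and -2.21 for *Gm7252*, and -0.95 and 1.53 for *Gm5385*. They were 0.31 and 1.13 for *mt-Rnr2*, and 0.04 and -1.77 for *Rftn2*. A single WT pair limits this test, and the absence of calls does not show that the responses were alike.

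**Figure D5:**
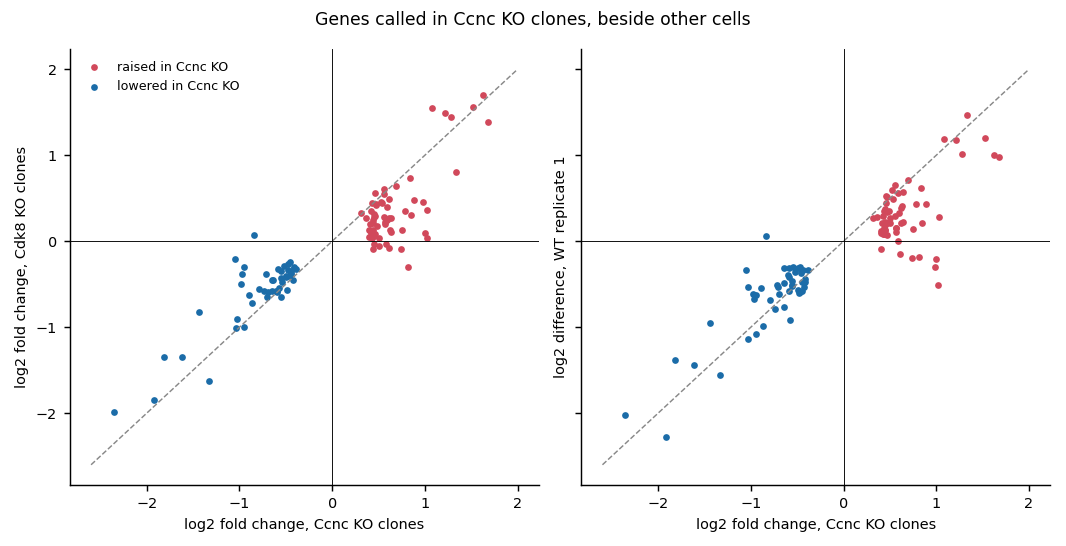
Log2 fold change of the 109 called genes in the *Ccnc* KO clones (x axes) against the *Cdk8* KO fit (left y axis) and the log2 difference in WT replicate 1 (right y axis), with a dashed line of equal values. The lowered genes (blue) lie near the line in both, with medians of -0.64, -0.47 and -0.54 for *Ccnc* KO, *Cdk8* KO and WT. The raised genes (red) lie mostly below it, with medians of 0.56, 0.27 and 0.27. All 109 were chosen by their *Ccnc* KO values, which can enlarge those values beside the others.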

How the data were processed

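The authors trimmed reads with Trimmomatic 0.38, aligned them to GRCm38.p6 with HISAT2 2.1.0 and deposited featureCounts 2.0.1 counts per gene and lane, without normalisation; their rlog values and DESeq2 results were not used here. The 2 lanes of each library were summed. All 55536 identifiers were found in GENCODE M21, and 27048 had 0 counts in all *Ccnc* KO libraries. The counts were tested in R 4.3.3 with edgeR 4.0.16 (TMM, filterByExpr, glmQLFit and glmQLFTest), with clone as a block and Benjamini-Hochberg adjustment over all genes tested. CPM use TMM library sizes, log2 values a prior count of 2. The labels give a DMSO and an ATRi sample per clone, so a clone pairs 2 libraries of 1 cell line. Deviations of paired libraries correlated at 0.22 (D1), 0.02 (G2) and 0.24 (H5). With clone as a block, p-values rest on how far the ATRi minus DMSO difference varied between clones. Each clone was cultured once per treatment, so this spread includes the variation of single libraries. Differences between responses were interaction terms.

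DESeq2 1.42.0, limma 3.58.1 (voom), other size factors and filters, and fits without the block or without a clone were alternatives. Named genes were the kinase module, *Ccnb1*, *Cdc25a* and *Egr1*, the 15 largest changes in each direction, the 5 smallest p-values in each direction and in each difference, the called members of each list (or the 2 with smallest p), and the 6 genes of widest clone range. Members and lists were chosen with earlier results of these data known. The fits were checked on simulated data. Where a symbol in a list had 2 identifiers, the one with more counts was used. One called gene is not reported here.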

Additional observations from a re-analysis of the deposited data

How the results depend on the processing

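Of the 109 calls, 15 were made without the replicate block (6 raised, 9 lowered), that is when the pairing by clone was ignored. DESeq2 gave 154 calls, 68.8% of them raised, and total counts in place of TMM gave 128, 41.4% raised, against 56.9% raised in the reported fit. Keeping every gene with a count gave 667 calls, and requiring a mean of 100 counts gave 40. Removing the trends with length and GC content gave 399, and leaving out a clone gave 228 to 466. The 9 lowered genes of the ATF4, transporter and enzyme lists were called wherever they had an adjusted p, except without the block (6). DESeq2 gave no adjusted p for *Vldlr* (8 called), and *Nupr1* and *Vldlr* fell below the 100-count filter (7 called).

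For the difference from WT, keeping every gene with a count gave 33 calls, leaving out a clone 29 to 35, and both WT replicates together 0 (1516 of 17774 genes at an unadjusted p under 0.05). For the difference from *Cdk8* KO, DESeq2 gave 2, the same filter 181 and leaving out a clone 0 to 34. The *Cdk8* KO calls fell to 0 without the block and lay between 283 and 2110 without a clone. Neither difference gained calls without the block (0 in both). The cause of these shifts was not tested.

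Some values near 0 or resting on 1 clone changed sign. *Ccnb1* was -0.02 with total counts. *Gm11847* was -0.11 without the block, -0.052 in voom, -0.0088 with total counts and -0.0022 with trends removed. *Rps29* was 0.012 in DESeq2. Leaving out a clone gave -0.037 to 0.041 for *Ccnb1*, -0.0021 to 0.17 for *Cdk19*, -0.072 to 0.014 for *Cdk8*, -0.073 to 0.18 for *Med12*, -0.33 to 0.23 for *Med12l*, -0.11 to 0.11 for *Rftn2*, -0.077 to 0.25 for *Gm9403*, -0.42 to 0.80 for *E130201H02Rik*, -0.64 to 0.85 for *Gm11847*, -1.1 to 0.23 for *Gm13192*, -0.32 to 0.77 for *Gm6916*, -0.073 to 1.1 for *Rps15-ps2* and -0.77 to 0.84 for *Rps29*. Of the list medians, 332 values kept within the clone spread and 18 moved beyond it.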

Other observations

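The genes whose ATRi response differed most between the clones were ribosomal protein and pseudogene transcripts. *Rps29*, a ribosomal protein gene, was at 31.8, 45.2 and 8.73 CPM in D1, G2 and H5 with DMSO and at 36.5, 13.2 and 25.2 CPM with ATRi. Its log2 differences were 0.20 in D1, -1.78 in G2 and 1.52 in H5, a range of 3.30 and the widest of any gene with a mean of at least 5 CPM. The next 5 genes were *Gm11847* (range 3.24), *Gm13192* (2.89), *E130201H02Rik* (2.60), *Rps15-ps2* (2.29) and *Gm6916* (2.25), which are annotated as processed pseudogenes. All 6 were lower with ATRi in G2 and higher in H5. Reads of these genes can match near-identical copies, so the values are uncertain.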
